A study of Mus musculus with 6 samples.

Results

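At day 6 of a differentiation towards mesoderm, 71 of 3196 kept cells of mouse embryonic stem cell (ESC) cultures still met a rule for pluripotent cells, 9 of 1650 in the Oct1 conditional knockout (cKO) library and 62 of 1546 in the parental library. The rule asked for at least 3 UMIs (unique molecular identifiers, each counting 1 captured transcript) of Pou5f1 and for UMIs of at least 2 of the genes Tdh, Nanog, Zfp42 and Tdgf1. The cells were thus chosen on measured values, and the levels of those 5 genes in them are a description. Cells that meet the rule are called selected cells below, and they were set against the other kept cells of their own day 6 library and against the kept ESC of their own genotype.

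Single-cell RNA sequencing with the 10x Genomics 5′ kit was carried out on Oct1_cKO and parental cells as undifferentiated ESC, at day 3 and at day 6. Oct1, the product of Pou2f1, belongs to the POU class of transcription factors, and by its title the series asks how it acts with Smad transcription factors when mesoderm is specified. The ESC were plated on 0.1% gelatin and given Bmp4, a signalling ligand that induces mesoderm, in N2B27 for the first 2 days. For the next 4 days a medium based on DMEM held Rspo3, which amplifies Wnt signals, together with LDN-193189, which blocks BMP receptor kinases; cells were harvested with trypsin. Each of the 6 groups held 1 library, 7096 of 11046 barcodes were kept in all, and library totals lay between 41665721 and 85102600 UMIs.

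The labels name no parental line, clone or deleted part of Pou2f1, and a 5′ tag does not measure how complete a deletion is. With 1 library per group no test between groups was possible, so the differences describe these libraries, and all 95% intervals cover counting error only. Any pair of libraries shared at most 2 kept barcodes, and 1 selected barcode was also kept in another library. Titles of ESC libraries carry another prefix than those of days 3 and 6, so the stage and that prefix cannot be told apart.

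Pluripotent cells are held in their state by a small circuit of transcription factors, in which the POU factor Oct4, encoded by Pou5f1, binds DNA beside Sox2 and acts with Nanog, Esrrb and Klf factors. In the naive state of ESC these factors are joined by Tfcp2l1 and Tbx3, whereas cells that leave it pass through a formative or primed state in which Otx2, Fgf5 and the DNA methyltransferase Dnmt3b are high. Oct1 and Oct4 recognise the same octamer in DNA, and primordial germ cells of the mouse again express Pou5f1, Nanog and Dppa3 together with Tfap2c and Prdm1.

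The octamer ATGCAAAT was searched on both strands in RefSeq promoter windows of build GRCm38.p6, which run from 250 bases before to 50 bases after a gene's start. It lay in 570 of 32851 windows (1.74%), in 1.03% of the 5658 windows of genes compared in both genotypes, and in 5 of 173 windows (2.89%) of genes at least 2-fold higher in selected cells than in other day 6 cells of both genotypes, of which 118 of 150 matched a window and were searched. A shortened form of the joint Oct4 and Sox2 element, which can overlap an octamer and was also searched on both strands, lay in 95 windows (0.289%), in 0 of those 173 and in both overlapping windows of Nanog. The windows are shown because they carry these letters, in capitals, in 2 genes of the rule, in the naive marker Spp1 and in Gadd45a, a gene chosen after its values were seen. A match is a description of the letters and not of binding. Those of Nanog lie at chr6:122707239-122707538 (+ strand), Zfp42 at chr8:43306960-43307259 (− strand), Spp1 at chr5:104435942-104436241 (+ strand) and Gadd45a at chr6:67037358-67037657 (− strand).
Nanog: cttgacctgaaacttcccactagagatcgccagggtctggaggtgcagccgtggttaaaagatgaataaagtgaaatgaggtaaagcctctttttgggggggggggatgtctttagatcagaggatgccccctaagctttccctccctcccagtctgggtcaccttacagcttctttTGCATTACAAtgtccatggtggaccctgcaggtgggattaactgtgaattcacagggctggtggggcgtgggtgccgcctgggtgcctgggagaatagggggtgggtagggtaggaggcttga
Zfp42: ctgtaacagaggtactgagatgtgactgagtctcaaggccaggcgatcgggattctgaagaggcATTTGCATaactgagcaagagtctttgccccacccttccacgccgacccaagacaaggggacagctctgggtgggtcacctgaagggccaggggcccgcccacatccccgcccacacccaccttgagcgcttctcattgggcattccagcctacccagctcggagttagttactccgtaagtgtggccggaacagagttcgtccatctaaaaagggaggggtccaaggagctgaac
Spp1: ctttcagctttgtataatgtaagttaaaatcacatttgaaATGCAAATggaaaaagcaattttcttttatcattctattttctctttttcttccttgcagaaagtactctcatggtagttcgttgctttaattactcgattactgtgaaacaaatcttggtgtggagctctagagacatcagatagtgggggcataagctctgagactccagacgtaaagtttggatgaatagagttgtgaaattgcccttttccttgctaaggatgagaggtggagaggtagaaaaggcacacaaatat
Gadd45a: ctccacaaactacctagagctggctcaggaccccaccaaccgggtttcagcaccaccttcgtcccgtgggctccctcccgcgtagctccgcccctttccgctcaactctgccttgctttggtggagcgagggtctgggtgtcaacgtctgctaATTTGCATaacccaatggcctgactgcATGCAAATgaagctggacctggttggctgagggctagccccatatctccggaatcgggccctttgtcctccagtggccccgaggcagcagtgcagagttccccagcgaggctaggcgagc
The element of Nanog starts 73 bases before the gene's start in the window shown, and 149 bases before the start in its other window. The octamers of Zfp42 and Spp1 start 186 and 210 bases before the starts of these genes. Gadd45a, which encodes a protein of the growth arrest and DNA damage response, holds 2 octamers, the first 97 bases before its start. It measured 172 CPM (UMIs per 1000000 UMIs summed over the cells of a group) in cKO and 99.1 CPM in parental selected cells, against 22.0 and 27.1 CPM in the other day 6 cells and 24.3 and 23.1 CPM in ESC.

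Pou2f1 itself, the targeted gene, stood lower in the cKO libraries but not at 0. It had 12.4 CPM (95% interval 5.94 to 22.8, 10 UMIs in 6 of 9 cells) in cKO selected cells and 28.7 CPM (24.1 to 34.0, in 51 of 62 cells) in parental selected cells. In the other day 6 cells it had 16.1 CPM in cKO and 31.1 CPM in parental, and in ESC 21.5 CPM in cKO and 30.1 CPM in parental. The direction was as the labels give it in all of these groups.

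Selected cells made up 0.545% (0.25 to 1.03, exact Clopper-Pearson interval) of kept cKO day 6 cells and 4.01% (3.09 to 5.11) of kept parental day 6 cells, a difference of −3.46 percentage points (−4.59 to −2.47, Newcombe interval). The size depended on depth and on the cells included. In cells thinned to 10000 UMIs the share was 0.733% in cKO and 2.30% in parental, a difference of −1.57 points (−2.65 to −0.561). At 20000 UMIs it was 0.952% in cKO and 4.13% in parental, a difference of −3.18 points. Thinning left out shallower cells, 558 of 1650 in cKO and 371 of 1546 in parental at 10000 UMIs, and 705 and 480 at 20000. Before thinning, 9 of 1092 cKO and 61 of 1175 parental cells of at least 10000 UMIs met the rule. The same rule held for 93.2% of cKO and 87.2% of parental ESC, and for 91.2% of cKO and 85.3% of parental day 3 cells. Nearly all of the fall in this share thus lay between days 3 and 6 in both genotypes.

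The share varied with the depth of the cells. Selected cells had a median of 71105 UMIs (42981 to 178181) in cKO and 67002 UMIs (5522 to 191827) in parental, against 30741 and 34552 UMIs in the other day 6 cells. Their median mitochondrial share was 5.0% (2.92 to 7.88) in cKO and 3.72% (0.0267 to 8.60) in parental. In the other day 6 cells it was 3.57% (0 to 9.96) and 3.24% (0 to 9.84). The part of the mitochondrial share in the results, and the quality of cells where it was very low, were not tested. Among cells with 40000 to 80000 UMIs the rule held in 6 of 453 cKO cells (1.32%) and 32 of 462 parental cells (6.93%). Above 80000 UMIs it held in 3 of 250 cKO cells (1.20%) and 22 of 233 parental cells (9.44%). Below 20000 UMIs it held in 0 of 705 cKO cells, with an exact upper limit of 0.522%, and in 1 of 480 parental cells (0.208%), so no difference was detectable there. From 20000 to 40000 UMIs it held in 0 of 242 cKO cells, with an exact upper limit of 1.51%, and in 7 of 371 parental cells (1.89%, 0.762 to 3.85).

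The genes of the rule describe how full the selected cells were. Pou5f1 ranged from 19 to 94 UMIs (median 33) in the 9 cKO cells and from 3 to 74 UMIs (median 20) in the 62 parental cells. Tdh, the threonine dehydrogenase that feeds one-carbon metabolism in mouse ESC, had UMIs in 8 of 9 cKO cells (median 47) and in 44 of 62 parental cells (median 2.5). Nanog had UMIs in all 9 cKO cells (4 to 65, median 21) and in 53 of 62 parental cells (0 to 52, median 7). All 71 cells held Zfp42, the zinc finger protein Rex1, with 9 to 60 UMIs in cKO and 1 to 104 UMIs in parental. Tdgf1, a co-receptor of Nodal, had UMIs in 8 cKO cells (median 2) and 51 parental cells (median 6). Of the 4 further genes of the rule, 7 cKO cells held all 4 and 2 held 3, whereas 36 parental cells held all 4, 14 held 3 and 12 held 2.

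Summed over cells, the rule genes stood near or below their ESC level, except Nanog in cKO, which stood above it. Pou5f1 had 454 CPM in cKO and 331 CPM in parental selected cells, against 3.25 and 5.71 CPM in other day 6 cells and 790 and 682 CPM in ESC. Tdh had 499 CPM in cKO selected cells and 541 CPM in cKO ESC, but 162 CPM in parental selected cells and 571 CPM in parental ESC. Nanog had 249 CPM in cKO and 129 CPM in parental selected cells, against 168 and 158 CPM in ESC and 38.3 and 60.7 CPM at day 3. Zfp42 had 356 CPM in cKO and 244 CPM in parental selected cells, against 33.6 and 63.4 CPM in day 3 cells. The rule chose the day 6 cells on these genes, while the day 3 sums cover all kept cells, so these values are a description.

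**Figure D1:**
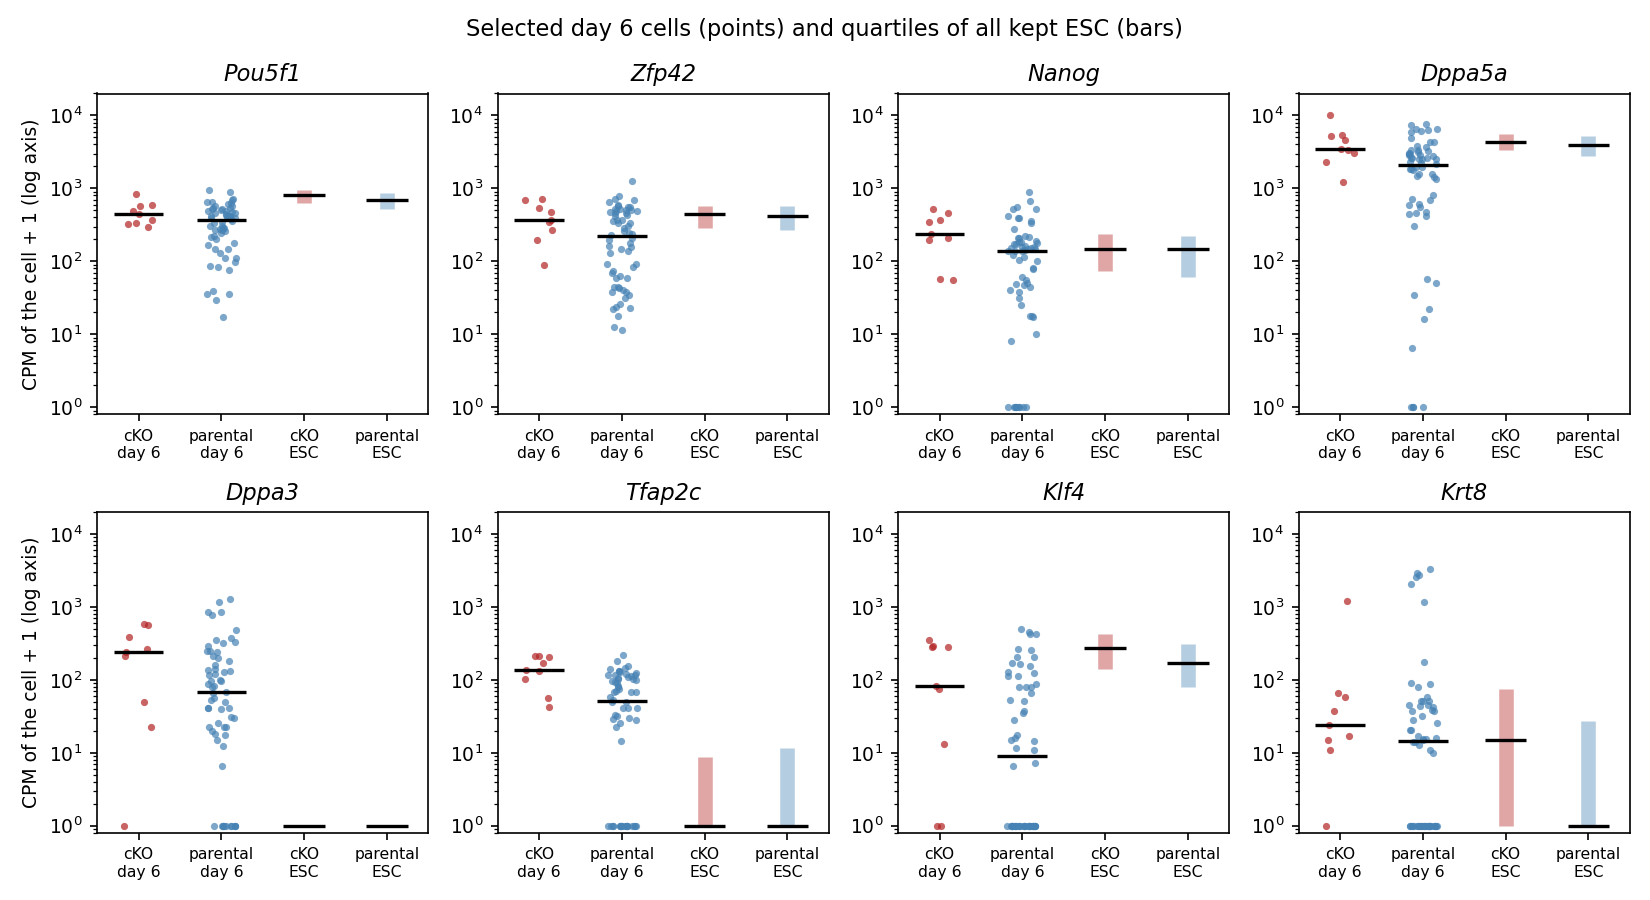
CPM of single cells plus 1 (log axis) for 8 genes, with 1 point per selected day 6 cell of cKO and parental, and bars for the quartiles of all kept ESC; black lines are medians and a cell with no UMI stands at 1. Klf4 had UMIs in 7 of 9 cKO and 33 of 62 parental selected cells, and the ESC medians of Dppa3 and Tfap2c are at no UMI.

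Near the limits of the rule the cells were mixed in content. The 52 parental cells with 6 or more Pou5f1 UMIs had a median of 159 UMIs of Dppa5a, a pluripotency gene that the rule did not use, and a median of 2 UMIs of the simple epithelial keratins Krt8 and Krt18 together. The 10 parental cells with 3 to 5 Pou5f1 UMIs had medians of 2 Dppa5a UMIs and 328.5 keratin UMIs. At least 10 Dppa5a UMIs were held by 49 of those 52 cells and by 3 of those 10. Just outside, cells with 1 or 2 Pou5f1 UMIs and at least 2 further rule genes numbered 4 in cKO and 8 in parental, with Dppa5a medians of 0 and 7 UMIs. Cells with 3 or more Pou5f1 UMIs and 1 further rule gene numbered 9 in cKO and 24 in parental, with Dppa5a medians of 0 and 1 UMIs. Those with none of the further genes numbered 4 in cKO and 14 in parental.

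Dppa5a divided the parental selected cells. All 9 cKO cells held at least 87 UMIs of it (up to 965), and 52 parental cells held between 11 and 704, but 10 parental cells held 0 to 6. Those 10 cells carried 1647 of the 1720 Krt8 UMIs of the parental selected cells, 1305 of 1507 UMIs of Tagln, an actin-binding protein of smooth muscle, and 273 of 283 UMIs of Isg15, an interferon-induced gene. Their median depth was 93978.5 UMIs, against 62684 UMIs in the other 52. The name persisting pluripotent cells thus went with high Dppa5a in all 9 cKO cells and in 52 parental cells, and 10 parental cells that meet the rule were low in it. Whether any of them are doublets was not tested. The limit of 10 Dppa5a UMIs was chosen after the values were seen, and list counts and named genes whose calls change without these cells are given both ways. In the same way values are given without the 1 cKO cell that held most keratin UMIs, also chosen after the values were seen, where they turn on it.

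**Figure D2:**
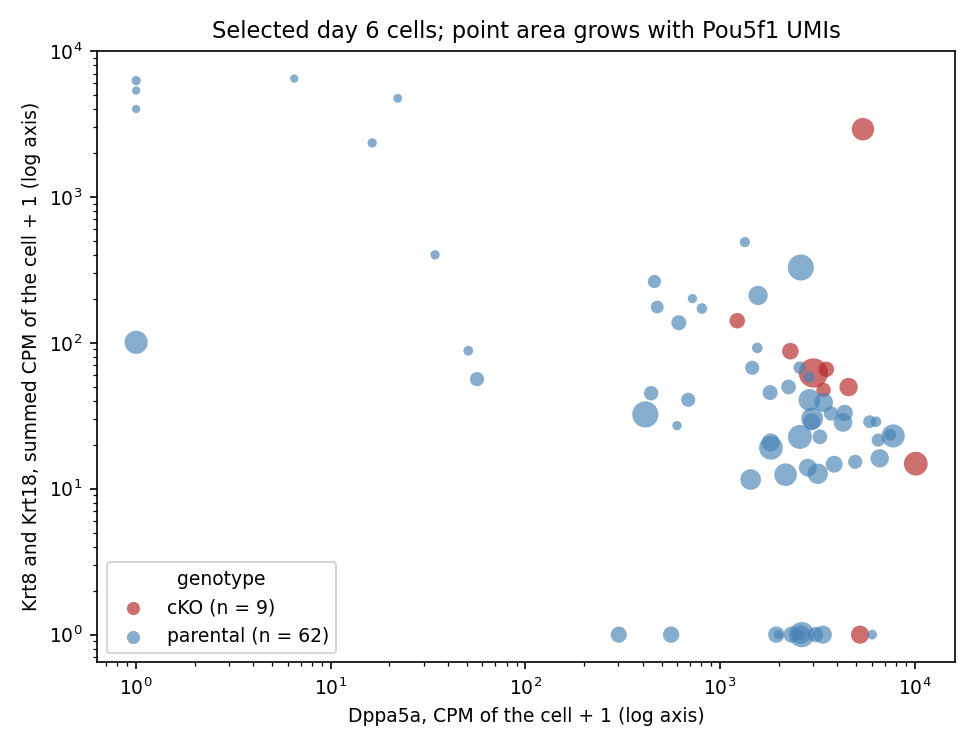
CPM of Dppa5a plus 1 against the summed CPM of Krt8 and Krt18 plus 1 in each selected day 6 cell (both log axes), cKO and parental in separate colours, with point area growing with Pou5f1 UMIs. The 10 parental cells with 6 or fewer Dppa5a UMIs lie at the left, most of them high in keratin, and 1 of 9 cKO cells is high in both.

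Against the other day 6 cells, selected cells were higher in the pluripotency genes that the rule did not use and lower in genes of mesenchyme and somites, and in parental also of nerve. A gene was counted where it differed at least 2-fold and had at least 20 CPM in the higher group, leaving out the 5 rule genes. In cKO 651 of 6198 genes (10.5%) were higher and 953 (15.4%) lower, and in parental 245 of 6096 genes (4.02%) were higher and 616 (10.1%) lower. In both genotypes 150 genes were higher (23.0% of the cKO and 61.2% of the parental ones) and 316 were lower (33.2% and 51.3%). The share of higher among all counted genes was 28.5% in parental, and 38.6% with TMM scaling. Since the same genes go with the rule genes that chose the cells, these differences are a description.

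**Figure D3:**
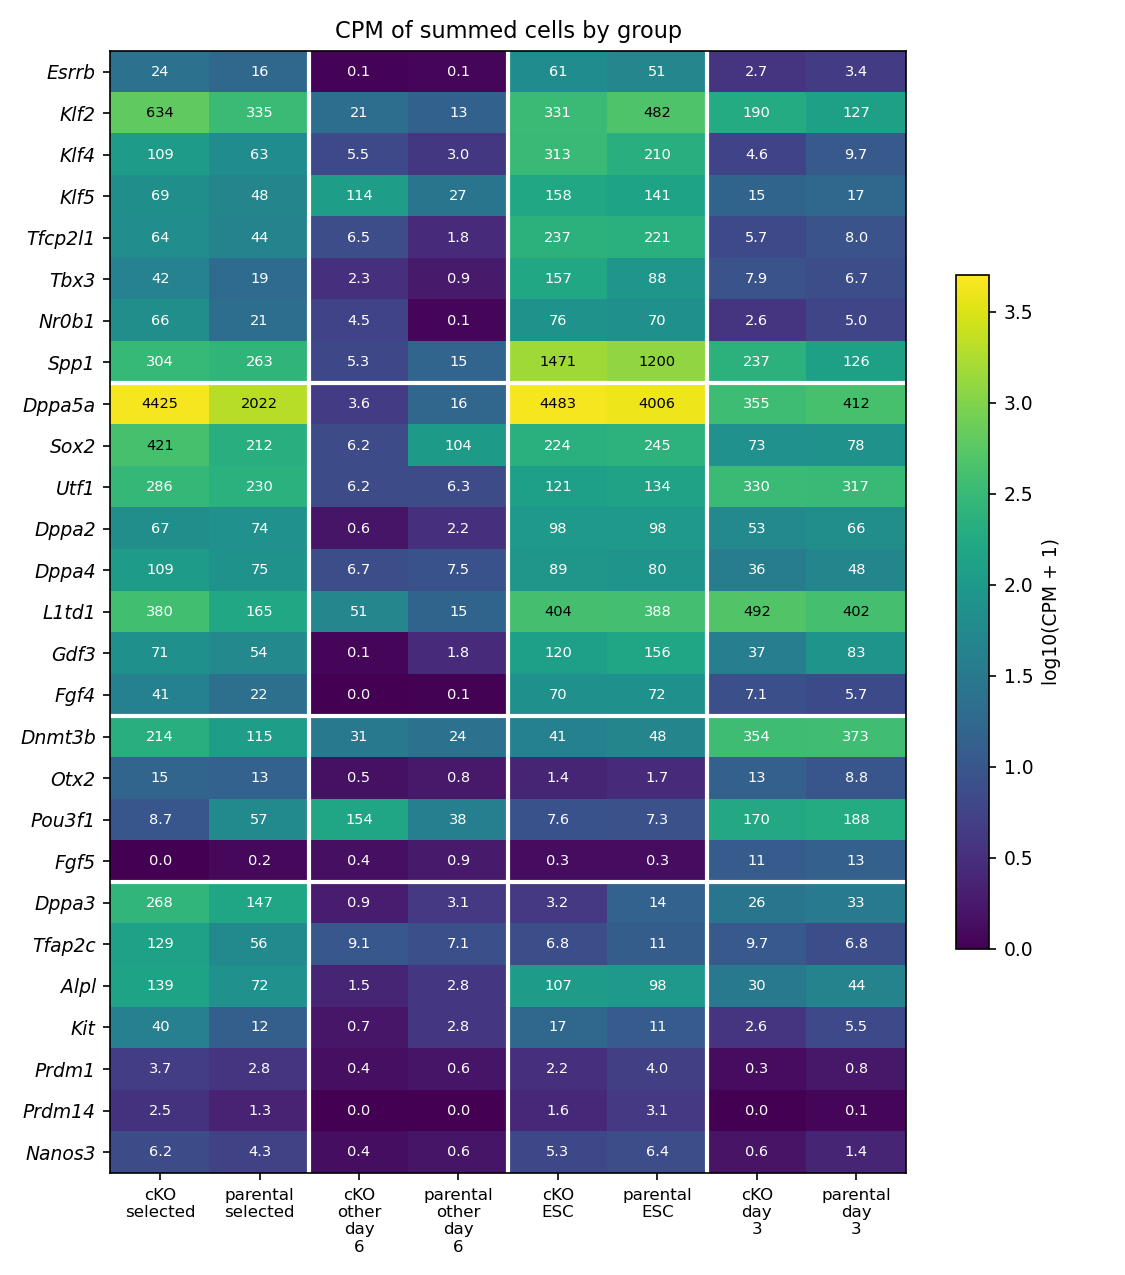
Summed CPM of each gene (number) in selected cells, other day 6 cells, ESC and day 3 cells of cKO and parental; colour is the log10 of CPM plus 1. Dppa3 and Tfap2c are highest in selected cells, and Klf4, Esrrb and Tfcp2l1 are highest in ESC.

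Among the genes that hold general pluripotency, 11 of 14 were higher in cKO and 10 of 14 in parental selected cells than in the other day 6 cells, with median log2 ratios over the list of 4.18 and 2.89 where all genes of that level had medians of −0.14 and −0.19. Dppa5a, which encodes an RNA-binding protein of early embryos, had 4425 CPM in cKO selected cells and 3.56 CPM in other cKO cells (log2 ratio 10.28, 10.09 to 10.48). In parental it had 2022 CPM in selected and 15.5 CPM in other cells (log2 ratio 7.03). Every cKO selected cell held Dppa5a, and 4.02% of the other cKO cells did. Sox2, the partner of Oct4, had 421 CPM in cKO selected and 6.22 CPM in other cKO cells, but 212 CPM in parental selected and 104 CPM in other parental cells, 44.0% of which held it. The log2 ratios of Sox2 were 6.08 in cKO and 1.03 in parental, and the difference between the genotypes was not tested. Utf1, a chromatin factor of ESC, had 286 CPM in cKO and 230 CPM in parental selected cells, against 6.22 and 6.30 CPM in the other cells. Fgf4, the growth factor that Oct4 and Sox2 activate in ESC, had 40.9 CPM in cKO and 22.1 CPM in parental selected cells and 0 and 0.0619 CPM in the others.

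The naive list behaved alike, with 10 of 11 compared genes higher in cKO and 7 of 8 in parental, and medians of 4.94 and 4.63. Klf4 had 109 CPM in cKO selected cells and 5.51 CPM in other cKO cells (log2 ratio 4.31, 3.95 to 4.64), and 63.0 CPM in parental selected and 3.02 CPM in other parental cells (4.38, 4.12 to 4.65). Esrrb, an orphan nuclear receptor, had 23.5 CPM in cKO and 16.2 CPM in parental selected cells, against 0.104 and 0.124 CPM in the others. Klf2, another Krüppel-like factor, had 634 CPM in cKO and 335 CPM in parental selected cells, against 20.6 and 13.2 CPM. Klf5 was the exception among these factors, with 69.4 CPM in cKO selected cells and 114 CPM in the other cKO cells. Thinned to 10000 UMIs, a selected cell held a median of 5 naive genes in cKO and 4 in parental, against 1 and 0 in other cells and 7 in ESC of both genotypes.

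Ooep, part of the subcortical maternal complex of the oocyte, was among the 12 highest genes of both genotypes, with 120 CPM in cKO and 78.5 CPM in parental selected cells, against 0.207 and 0.418 CPM in the others. Alpl, the alkaline phosphatase that marks pluripotent and germ cells, had 139 CPM in cKO selected and 1.45 CPM in other cKO cells, and was held by all 9 cells. Gdf3, a TGF-beta family ligand, had 70.6 CPM in cKO selected and 0.133 CPM in other cKO cells. Mylpf, known as a muscle myosin light chain, had 890 CPM in cKO and 336 CPM in parental selected cells, against 5.94 and 8.69 CPM. Mylpf was held by 8 of 9 cKO and 56 of 62 parental selected cells. Upp1, a uridine phosphorylase, was high in parental, with 456 CPM in selected and 16.3 CPM in other cells. Of the 12 highest genes in cKO, Spp1 drew over 50% of its UMIs from 1 cell, and none did so in parental.

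Genes of mesenchyme and somites were lower in selected cells. Of the mesenchyme and fibroblast list all 7 compared genes in cKO and all 8 in parental were lower, with medians of −3.47 and −3.58. Vim, the intermediate filament of mesenchyme, had 7.43 CPM in cKO selected and 498 CPM in other cKO cells, and 170 CPM in parental selected and 1182 CPM in other parental cells. Wnt4, a signalling ligand, and Igfbp5, an IGF-binding protein, had no UMI in the 9 cKO cells and 101 and 68.2 CPM in other cKO cells, at least 27.2-fold and 18.4-fold lower with a floor of 3 counts over the group. Genes of presomitic mesoderm and somites were lower in 3 of 3 compared genes in cKO and 3 of 4 in parental. Meox1, a somite factor, had 0 CPM in cKO selected cells and 40.7 CPM in other cKO cells, and 4.04 CPM in parental selected and 72.1 CPM in other parental cells. Over the 14 genes of that list the summed level was 3.72 CPM in cKO and 78.5 CPM in parental selected cells, against 162 and 275 CPM in the other cells, and 12 of the 14 were at 0 in cKO. Tcf15 alone gave 65.1 CPM of the parental sum and 2.48 CPM of the cKO sum. ESC held Tcf15 at 28.9 CPM in cKO and 29.2 CPM in parental.

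Neural genes were lower mainly in parental selected cells; the difference between the genotypes was not tested. In parental 11 of 12 compared neural genes were lower in selected cells. The POU factor gene Pou3f2 had 0.851 CPM in selected and 61.6 CPM in other cells (log2 ratio −6.18). Crabp1, a retinoic acid-binding protein, had 12.3 CPM in selected and 791 CPM in other cells (log2 ratio −6.00). In cKO 3 of 5 were lower and 2 higher, Olig2 and Tubb3 (log2 ratio 1.40, and 0.99 without the cKO cell with most keratin), and Olig2 had 31.0 CPM in selected cells, 0.0296 CPM in other cKO cells and 31.9 CPM in cKO ESC. Hox genes, which pattern the trunk, were lower in 9 of 10 compared genes in parental and higher in 1, and Hoxb4 had 3.83 CPM in selected and 63.6 CPM in other cells. Markers of endoderm, trophoblast and endothelium and blood were low: their summed levels were 23.5, 18.6 and 0 CPM in cKO selected cells, with 21.1 CPM of the endoderm sum from Dab2 alone (3.18 CPM without the cell with most keratin), and 5.32, 21.5 and 2.98 CPM in parental selected cells. Among the 8 two-cell-stage genes found, no cKO selected cell held a UMI, and parental selected cells summed to 2.55 CPM.

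The simple epithelial genes depended on a few cells. Of the surface epithelium list, 7 of 12 compared genes were lower in cKO selected than in other cKO cells and none higher, and in parental 5 of 10 were lower and 2 higher. Krt8 had 287 CPM in cKO selected and 1880 CPM in other cKO cells, but 215 of its 232 UMIs in selected cells came from 1 cell of 178181 UMIs. The same cell held 303 of the 322 Krt18 UMIs, and without it Krt8 had 27.0 CPM, 9 of 11 compared genes of the list were lower and none higher. In parental Krt8 had 366 CPM in selected and 773 CPM in other cells, and 19.9 CPM without the 10 cells low in Dppa5a, where 6 of 10 genes of the list were lower and 1 higher. Without those 10 cells 11 of 14 general and 8 of 9 naive pluripotency genes were higher than in the other parental cells.

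Enzymes of one-carbon metabolism were higher in both genotypes, and cell cycle genes in cKO. Of the threonine and one-carbon enzymes, 7 of 12 compared genes were higher in cKO and 5 of 12 in parental (6 without the 10 cells low in Dppa5a), none lower, with list medians of 1.12 and 0.88. Mthfd2, a mitochondrial folate enzyme, had 75.6 CPM in cKO selected and 22.8 CPM in other cKO cells, and 178 CPM in parental selected and 54.2 CPM in other parental cells. Genes of S phase were higher in 9 of 12 in cKO and in 0 of 12 in parental, and genes of mitosis in 8 of 12 in cKO and 0 of 12 in parental. Top2a, the topoisomerase of dividing cells, had 524 CPM in cKO and 507 CPM in parental selected cells, against 170 and 398 CPM in the other cells. The level in selected cells was thus close between the genotypes, and the other cKO cells had the lower one; the difference between the genotypes was not tested.

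Against ESC of their own genotype, selected cells kept much of general pluripotency but had lower levels of naive factors. Some germ cell and formative genes were higher, among them Dppa3, Tfap2c and Dnmt3b. In cKO 545 of 5763 genes (9.46%) were higher and 368 (6.39%) lower, and in parental 374 of 5676 genes (6.59%) were higher and 360 (6.34%) lower. In both genotypes 188 genes were higher (34.5% of the cKO and 50.3% of the parental ones) and 167 lower (45.4% and 46.4%). The balance of directions turned with the scaling: higher genes were 59.7% of those counted in cKO and 51.0% in parental, but 39.3% and 37.0% with TMM factors, which shifted all log2 ratios by −0.20 and −0.13.

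Of the naive list, 7 of 11 compared genes were lower and 1 higher in cKO, and 10 of 13 lower and 1 higher in parental, with medians of −1.28 and −1.65 where all genes of that level had medians of 0.12 and 0.05. Klf4 had 109 CPM in cKO selected cells and 313 CPM in cKO ESC (log2 ratio −1.52, −1.84 to −1.22), and 63.0 CPM in parental selected cells and 210 CPM in parental ESC (−1.74, −1.91 to −1.57). Tfcp2l1, a factor of naive self-renewal, had 64.4 CPM in cKO and 44.2 CPM in parental selected cells, against 237 and 221 CPM in ESC. Esrrb had 23.5 CPM in cKO and 16.2 CPM in parental selected cells, against 61.3 and 50.5 CPM in ESC. Spp1, the secreted protein osteopontin, had 304 CPM in cKO and 263 CPM in parental selected cells, against 1471 and 1200 CPM in ESC. The selected cells thus sat between ESC and the other day 6 cells in these factors. Of the 14 general genes, 1 was higher and none lower in cKO (median −0.03), and none higher and 4 lower in parental (median −0.39). Without the 10 parental cells low in Dppa5a, Utf1 was higher and 3 genes lower. Dppa5a had 4425 CPM in cKO selected cells and 4483 CPM in cKO ESC, whereas parental selected cells had 2022 CPM and parental ESC 4006 CPM.

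The 1 naive gene that was higher was Dppa3, which encodes Stella, a protein of oocytes and primordial germ cells that protects DNA methylation marks. It had 268 CPM in cKO selected cells and 3.16 CPM in cKO ESC (log2 ratio 6.40, 6.08 to 6.74), and 147 CPM in parental selected cells and 13.6 CPM in parental ESC (3.43, 3.29 to 3.57). Dppa3 was held by 8 of 9 cKO cells (0 to 68 UMIs, median 19) and 51 of 62 parental cells (0 to 95 UMIs, median 4.5), against 9.81% of cKO ESC and 22.9% of parental ESC, with median depths of 70990.5 and 51732.5 UMIs. At day 3 it had 26.2 CPM in cKO and 33.4 CPM in parental cells. Selected cells were above every other group in this gene, and ESC hold it in a minority of cells.

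Tfap2c, a factor that primordial germ cells and trophoblast need, moved the same way. It had 129 CPM in cKO selected cells and 6.75 CPM in cKO ESC (log2 ratio 4.25, 3.91 to 4.59), and 55.7 CPM in parental selected cells and 11.5 CPM in parental ESC (2.28, 2.08 to 2.48). All 9 cKO cells (3 to 24 UMIs) and 44 of 62 parental cells held it, against 27.2% of cKO ESC and 27.9% of parental ESC. Of the germ cell precursor list, which also holds Dppa3, 5 of 6 compared genes were higher in cKO and 3 of 5 in parental, and none lower. Without the 10 parental cells low in Dppa5a 2 of 4 were higher and 1 lower in parental, Ifitm3, an interferon-induced membrane protein, with 126 CPM in selected cells and 299.8 CPM in ESC. With all selected cells the list median was 1.41 in cKO but 0.16 in parental. All genes of that level had medians of 0.12 and 0.05. Kit, the receptor of stem cell factor, had 39.7 CPM in cKO selected cells and 17.1 CPM in cKO ESC. The master regulators of germ cell fate stayed low: Prdm1 had 3.72 CPM in cKO and 2.77 CPM in parental selected cells, against 2.23 and 4.02 CPM in ESC, and Prdm14 and Nanos3 had at most 6.20 CPM in selected cells of either genotype. Thinned to 10000 UMIs, cKO selected cells held a median of 4 genes of this list, parental selected cells 2, and ESC 2. Stra8, the retinoic acid-induced gene of meiotic entry, had 76.4 CPM in parental selected cells, in 35 of 62 of them, and 0.655 CPM in parental ESC, whereas cKO selected cells had 2 UMIs in all. The trophoblast factors Elf5 and Gata3 had 0 and 3.72 CPM in cKO selected cells.

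Of the primed epiblast list, 2 of 3 compared genes were higher than in ESC in cKO and 3 of 5 in parental (4 of 6 without the 10 cells low in Dppa5a), and none lower. The list medians were 0.20 in cKO and 0.94 in parental, where all genes of that level had medians of 0.12 and 0.05. In cKO the log2 ratios of members with at least 5 CPM went down to −2.23. Dnmt3b had 214 CPM in cKO selected cells and 41.0 CPM in cKO ESC (log2 ratio 2.39, 2.15 to 2.61), and 115 CPM in parental selected cells and 47.6 CPM in parental ESC (1.27, 1.14 to 1.41). Of its 173 UMIs in cKO selected cells 90 came from the cell with most keratin, and without it Dnmt3b had 132 CPM there (log2 ratio 1.69). Otx2, a homeobox factor, had 14.9 CPM in cKO and 13.4 CPM in parental selected cells, against 1.41 and 1.73 CPM in ESC, below the 20 CPM needed to be counted. Fgf5, a growth factor of the primed epiblast, had 0 CPM in cKO and 0.213 CPM in parental selected cells. Utf1 had 286 CPM in cKO selected cells and 121 CPM in cKO ESC, and 230 CPM in parental selected cells and 134 CPM in parental ESC (log2 ratio 0.78, and 1.01 without the 10 cells). Dnmt3b was far higher at day 3, with 354 CPM in cKO and 373 CPM in parental cells.

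Among the genes counted in both comparisons and both genotypes, 13 were higher and 12 lower in selected cells. Genes compared in both genotypes numbered 5618 against other day 6 cells and 5307 against ESC. The number compared in all 4 comparisons was not taken. Both comparisons of a genotype use the same selected cells, so a single cell can move a gene in both. The 13 also held Ube2t, Magohb, Ankrd37, Anxa11 and Pim1. Dppa3, Tfap2c, Dnmt3b and Gadd45a were among the 13, as was Dmrt1, a transcription factor of gonads and germ cells, with 22.3 CPM in cKO and 24.5 CPM in parental selected cells against 0.67 and 1.66 CPM in other cells and 2.75 and 5.62 CPM in ESC; Dmrt1 was named after its values were seen. Among the 12 were Id1 and Id3, targets of BMP signals, which also help to keep mouse ESC undifferentiated. Id1 had 28.5 CPM in cKO selected cells, against 131 CPM in other cKO cells and 345 CPM in cKO ESC. In parental it had 30.0 CPM in selected cells, against 84.9 CPM in other cells and 209 CPM in ESC. Id3 had 107 CPM in cKO and 92.3 CPM in parental selected cells, against 220 and 275 CPM in other cells and 354 and 230 CPM in ESC. Without the cKO cell with most keratin, Id3 differed from the other cKO cells by −0.69 on the log2 scale and was not counted. Both genes belong to a BMP response list of which 4 of 6 compared genes in cKO and 4 of 5 in parental were lower than in the other day 6 cells. The inhibitory Smad gene Smad7 was the 1 higher in each, with 79.3 CPM in cKO and 47.2 CPM in parental selected cells (log2 ratios 1.44 and 1.30). Selected and other day 6 cells shared a medium with the BMP receptor inhibitor, and undifferentiated ESC had not been through that phase. Against ESC the stage and the inhibitor cannot be told apart, and the part of the inhibitor was not tested.

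Genes of glycolysis and hypoxia were higher than in ESC, in 8 of 14 compared genes in cKO (1 lower) and 11 of 14 in parental (none lower), with medians of 1.12 and 1.65. Slc2a1, the glucose transporter Glut1, had 513 CPM in cKO and 566 CPM in parental selected cells, against 109 and 75.0 CPM in ESC. Bnip3, a mitophagy receptor induced by low oxygen, had 54.5 CPM in cKO and 127 CPM in parental selected cells, against 9.19 and 6.80 CPM. The other day 6 cells had 943 and 518 CPM of Slc2a1 and 71.6 and 104 CPM of Bnip3. Against those cells 2 of 14 genes of the list were higher and none lower in each genotype. Without the cKO cell with most keratin, Slc2a1 had 297 CPM in cKO selected cells and was lower than in the other cKO cells, and without the 10 parental cells 3 of 14 were higher in parental. Of the simple junction and adhesion list 6 of 12 compared genes were higher than in ESC in cKO (1 lower) and 5 of 10 in parental (none lower), and 4 of 11 and 4 of 10 without those cells. The claudin Cldn6 had 62.0 CPM in cKO and 73.4 CPM in parental selected cells, against 2.29 and 4.93 CPM in ESC, and 35.0 CPM in cKO and 45.8 CPM in parental without them. Epcam, a cell adhesion molecule of epithelia and ESC, had 468 CPM in selected cells of both genotypes, against 167 and 148 CPM in ESC.

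The surface epithelium list as a whole stood above ESC, with 8 of 12 compared genes higher in cKO (median 1.59) and 7 of 10 in parental (median 1.77), but a few cells carried it. Without the cKO cell with most keratin 3 of 8 compared genes were higher and 2 lower in cKO (median −0.503), and without the cells in the top 5% of UMIs of each library the cKO median was −0.435. Without the 10 parental cells low in Dppa5a, 2 of 7 compared genes were higher and 3 lower in parental. Krt8 then had 19.9 CPM in parental selected cells and 105 CPM in parental ESC, a log2 ratio of −2.39 where it was 1.81 with them. Of the 12 genes named as highest against ESC, 6 in cKO drew over 50% of their UMIs from 1 cell, among them Slc40a1 (66.0%), Mal and Zfp503 (100% each), and 2 in parental did, Isg15 (55.8%) and Psmb8 (67.3%). Without the 10 cells Isg15 had 2.73 CPM and Psmb8 3.82 CPM in parental selected cells and neither was counted.

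Many of the lowest genes against parental ESC were matrix genes of fibroblasts that only a minority of those ESC held. Mgp, matrix Gla protein, led them, with 0 CPM in parental selected cells and 502 CPM in parental ESC, where 27.2% of cells held it. Of the 12 lowest, Laptm5 and Mras were held by 80.8% and 63.7% of parental ESC, and the others by 10.0% to 27.2%. The parental ESC are all kept cells, with 179 that did not meet the rule. The mesenchyme and fibroblast list summed to 578 CPM in parental selected cells and 1347 CPM in parental ESC, and to 29.7 CPM in cKO selected cells and 297 CPM in cKO ESC. The comparison was also recomputed with only the ESC that met the rule, 494 in cKO and 1217 in parental. The part of the mesenchyme and fibroblast genes in it was not tested on its own. In cKO the lowest were Fst, an activin-binding protein, with 0 CPM in selected cells and 88.5 CPM in ESC (at least 23.8-fold lower), and the forkhead gene Foxd1, with 1 UMI in selected cells and 136 CPM in ESC (log2 ratio −6.78, −12.08 to −4.30).

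**Figure D4:**
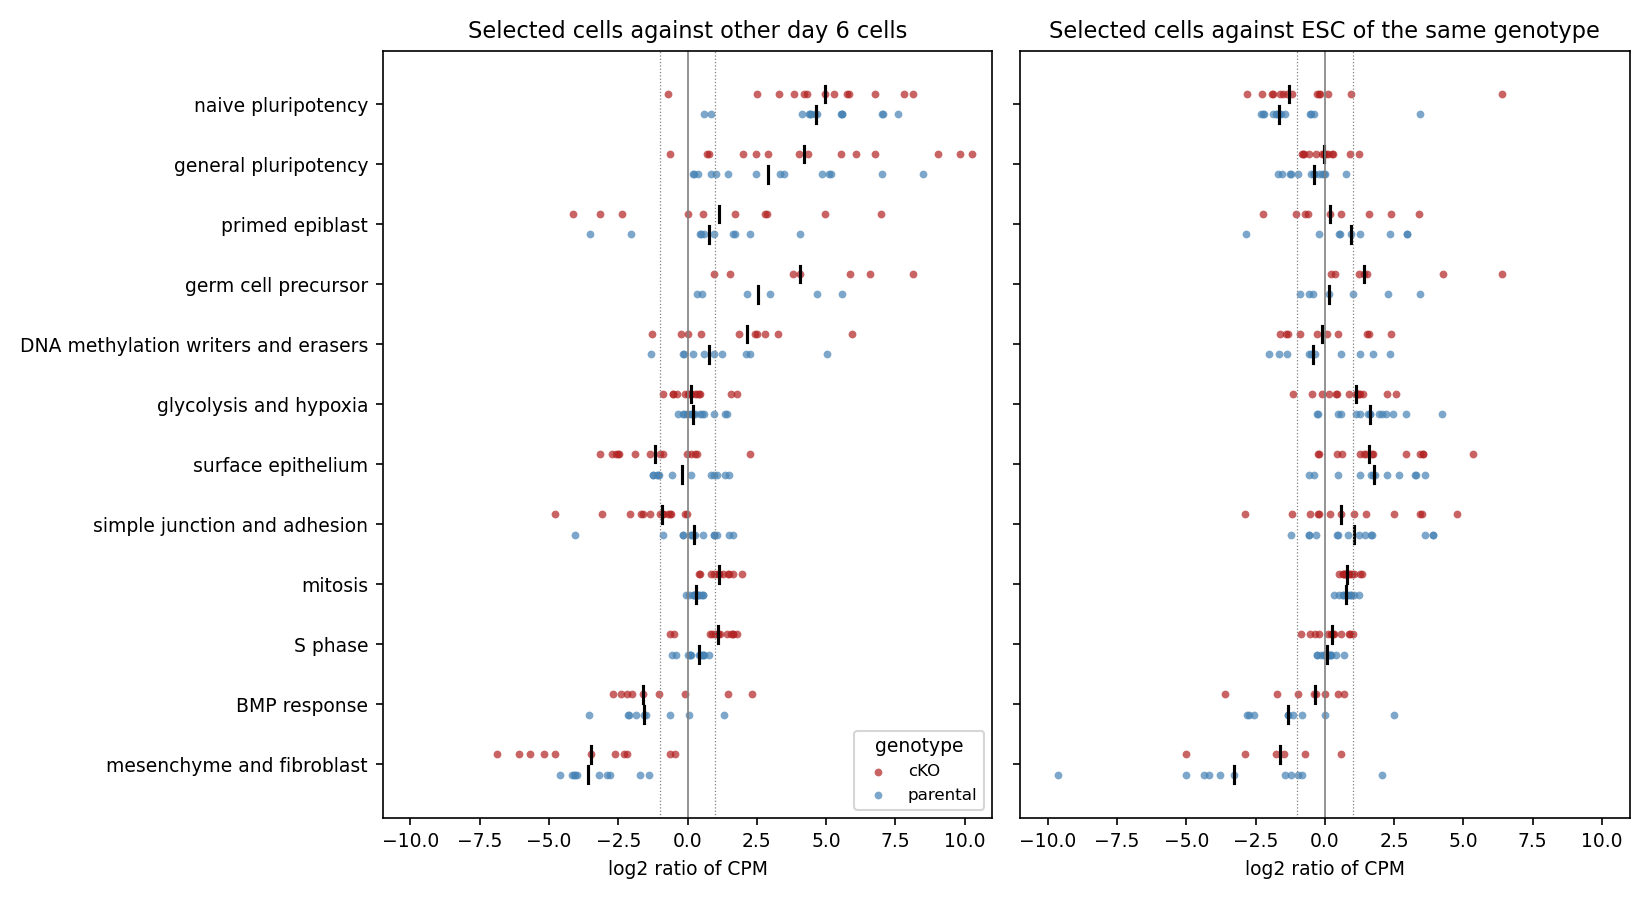
Log2 ratios of single genes with at least 5 CPM (points) and their median (black bar) for 12 lists, selected cells against other day 6 cells on the left and against ESC on the right, cKO above parental; dotted lines mark 2-fold. Naive genes lie above 0 against other day 6 cells except Klf5 in cKO (medians 4.94 in cKO and 4.63 in parental) and mostly below 0 against ESC (medians −1.28 and −1.65).

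Between the genotypes, cKO selected cells were higher than parental selected cells in 247 of 5684 genes (4.35%) and lower in 197 (3.47%); higher genes were 55.6% of those counted and 43.9% with TMM scaling. All of these rest on 9 cKO cells, and of the 12 highest genes 8 drew over 50% of their UMIs from 1 cell. AA467197 led them, with 223 CPM in cKO and 15.3 CPM in parental selected cells, and 97.8% of its 180 UMIs lay in 3 of the 9 cells. Ifitm1, an interferon-induced membrane protein also known from early germ cells, had 585 CPM in cKO and 118 CPM in parental selected cells and was held by all 9 cKO cells. Sdc4, a heparan sulfate proteoglycan, had 364 CPM in cKO and 58.9 CPM in parental selected cells, again in all 9. Of the germ cell list 3 of 6 compared genes were higher in cKO, Tfap2c among them, and none lower.

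Genes lower in cKO selected cells included Lefty1, an inhibitor of Nodal, with 0 CPM in cKO and 109 CPM in parental selected cells, at least 29.2-fold lower. Only 23 of 62 parental cells held Lefty1, and 1 of them gave 33.5% of its UMIs. Stra8 had 2.48 CPM (2 UMIs) in cKO and 76.4 CPM in parental selected cells (log2 ratio −4.95, −8.00 to −3.08). Of the integrated stress response list 5 of 7 compared genes were lower in cKO (6 of 8 without the 10 parental cells low in Dppa5a) and none higher; Ddit3, the transcription factor Chop, had 4.96 CPM in cKO and 45.7 CPM in parental selected cells, and Trib3, a pseudokinase it induces, had 6.20 CPM in cKO and 27.2 CPM in parental selected cells. Tagln and Vim were lower too, with 13.6 and 7.43 CPM in cKO and 321 and 170 CPM in parental selected cells, and 55.1 and 101 CPM in parental without the 10 cells low in Dppa5a. Pou3f1, the POU factor Oct6 of primed and neural cells, had 8.67 CPM in cKO and 56.8 CPM in parental selected cells, and 24.6 CPM in parental without those 10.

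Selected parental cells also differed from other parental cells in the shares of their UMIs that came from whole chromosomes. A score was taken per cell of at least 10000 UMIs as the mean log2 ratio of the shares of chromosomes 1, 6 and 8 minus that of chromosome 11, set against the median cKO ESC. Scores above 0.25 are called high on chromosomes 1, 6 and 8, and scores below −0.25 high on chromosome 11. Among parental selected cells 38 of 61 (62.3%, 49.0 to 74.4) were high on chromosomes 1, 6 and 8 and 17 high on chromosome 11, against 373 of 1114 (33.5%, 30.7 to 36.3) and 554 among the other parental day 6 cells. Parental ESC had 361 of 1256 (28.7%) and 536, and parental day 3 cells 446 of 847 (52.7%) and 279. Without the 10 cells low in Dppa5a the share was 37 of 51 (72.5%). Among the 9 cKO cells 0 were high on chromosomes 1, 6 and 8, with an exact upper limit of 33.6%, and 1 was high on chromosome 11. The chromosome groups are ranges of 1 score whose chromosomes were chosen on earlier results of these data. The score taken over genes that differed under 2-fold also gave 38 of 61.

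**Figure D5:**
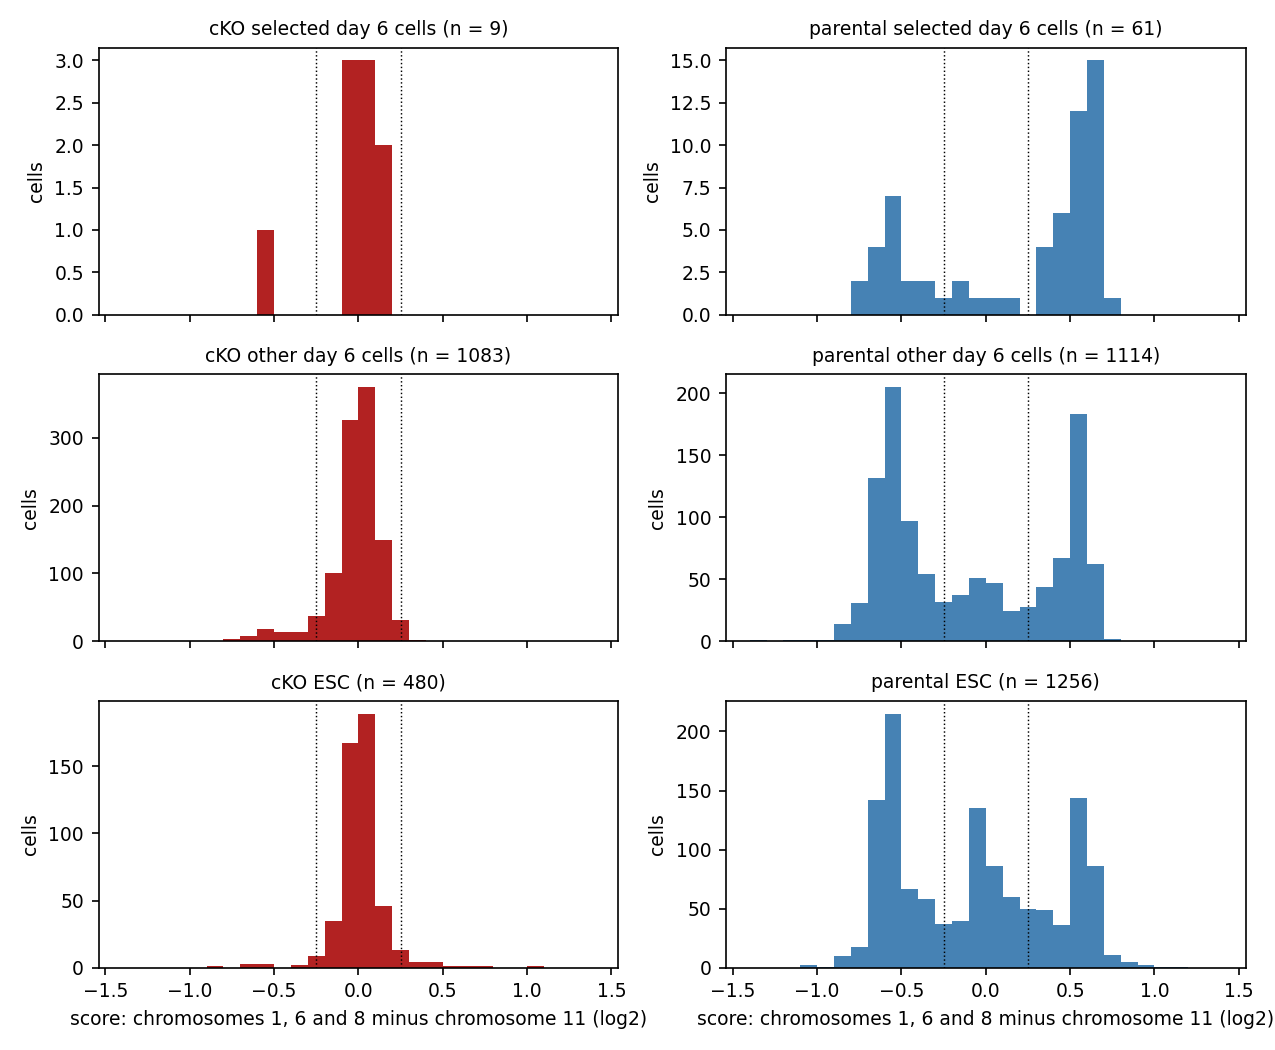
Number of cells of at least 10000 UMIs by chromosome score (mean log2 ratio of the UMI shares of chromosomes 1, 6 and 8 minus that of chromosome 11), for selected day 6 cells, other day 6 cells and ESC, cKO left and parental right, each panel with its own vertical scale and dotted lines at 0.25 and −0.25. Parental cells spread over a low and a high range, and 38 of 61 parental selected cells lie above 0.25.

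Read the other way, 38 of 411 parental day 6 cells high on chromosomes 1, 6 and 8 met the rule (9.25%, 6.63 to 12.5), against 17 of 571 high on chromosome 11 (2.98%, 1.74 to 4.72), with median depths of 36810 and 50303 UMIs. In cKO 8 of 995 cells between the limits met it (0.804%, 0.348 to 1.58), 1 of 77 high on chromosome 11 (1.30%, 0.0329 to 7.02) and 0 of 20 high on chromosomes 1, 6 and 8, with an exact upper limit of 16.8%. Y-linked genes summed to 43.9 CPM in the 38 selected cells and 119 CPM in the 17. Chromosome state and genotype cannot be told apart in the comparison of cKO with parental selected cells, since no cKO selected cell was high on chromosomes 1, 6 and 8.

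The selected cells of both ranges differed in content. The 38 cells had a median of 2565 CPM of Dppa5a, 151 CPM of Nanog and 57.1 CPM of Klf4, and the 17 cells 412, 16.7 and 0 CPM, and 37 of the 38 but 10 of the 17 held at least 10 Dppa5a UMIs. Set only against cells of their own range, which was chosen after the values were seen, Dppa3, Tfap2c and Slc2a1 were counted as higher than in ESC, and Klf4 as lower, in both ranges. Dppa3 had 105 CPM in the 38 cells and 4.93 CPM in the 361 ESC of that range, and 225 CPM in the 17 cells and 19.5 CPM in the 536 ESC of theirs. The medians per cell had the other order. They were 59.7 CPM in the 38 cells, 32 of which held Dppa3, and 21.8 CPM in the 17, 13 of which held it. Of the 17, 1 cell low in Dppa5a held 95 UMIs of Dppa3. Tfap2c had 74.6 CPM in the 38 cells against 6.34 CPM in ESC, and 31.9 CPM in the 17 cells against 13.2 CPM. It was held by 31 of the 38 and by 8 of the 17, whose median was 0 CPM. Klf4 had 108 CPM in the 38 cells against 233 CPM in ESC, and 6.13 CPM in the 17 cells against 207 CPM. Slc2a1 had 622 CPM in the 38 cells against 65.1 CPM, and 552 CPM in the 17 cells against 75.5 CPM. Sox2, which other parental day 6 cells held at 214 CPM in the first range, had 272 CPM in the 38 selected cells.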

How the data were processed

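Counts of UMIs per gene and barcode, deposited by the authors for 6 libraries, were made with Cell Ranger 3.1.0 per the file headers and with the mm10 genome per the submitters' processing notes; they were not normalized. A barcode was kept if it held 1000 genes or more and no more than 10% of its UMIs were mitochondrial, which left 530 to 1650 cells per library. No doublet caller was run. UMIs were summed over the cells of each group for 31053 genes (where a symbol occurred more than once, the entry with more UMIs kept it) and divided by the group total to give CPM. Intervals are exact 95% Poisson, conditional binomial or Clopper-Pearson intervals. A gene was counted at 2-fold and 20 CPM in the higher group, a list's median was taken over members with at least 5 CPM, and genes at 0 were set to a floor of 3 counts. Named genes were the 12 per direction with the largest ratio (prior 1 CPM) held by at least 10% of the cells of the higher group, and up to 3 members per list for 32 lists; further genes were named after their values were seen, and a few genes are not reported here. The selection rule, members and lists were chosen with earlier results of these data known. Gene positions for 30934 genes came from GENCODE. Python 3.11.15, numpy 2.4.6, pandas 2.3.3, scipy 1.17.1, matplotlib 3.10.9 and R 4.3.3 were used, with edgeR 4.0.16 for TMM factors alone. The calculation was tested on simulated Poisson sums with known folds. Those sums hold no variation between cells, so genes carried by 1 cell were not covered. Promoter sequences came from RefSeq.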

Additional observations from a re-analysis of the deposited data

Results flagged for a closer look

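In 8 genes the selected cells of the genotypes were counted in opposite directions, and 7 of them are given here. The difference between the genotypes was not tested, since each has 1 library. Against the other day 6 cells the log2 ratio of Sp5, a Wnt target, was −3.88 (95% interval −6.16 to −2.33, on 3 UMIs) in cKO and 1.16 in parental, and 0.41 in parental without the 10 cells low in Dppa5a, where Sp5 was no longer counted. It was −2.14 in cKO and 3.12 in parental for Nupr1, a stress-induced gene, −2.91 in cKO and 1.64 in parental for Ddit3, and 1.40 in cKO and −2.07 in parental for the neuronal tubulin Tubb3, which had 0.99 in cKO without the 1 cell with most keratin UMIs and was then not counted. Nupr1, Ddit3 and Tubb3 rested on 7, 4 and 17 UMIs in the 9 cKO cells. Against ESC the ratio of Gsn, which encodes the actin-severing protein gelsolin, was 1.62 in cKO and −1.03 in parental; without the cKO cell with most keratin it was −1.43 in cKO, and without the 10 cells low in Dppa5a −3.67 in parental. That of AA467197 was 1.18 in cKO and −1.38 in parental. Tcf15, a mesoderm factor, had −3.55 (−6.59 to −1.69, on 2 UMIs) in cKO and 1.15 in parental.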

How the results depend on the processing

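Each group is 1 library, so no replicate could be left out. No paired analysis was possible because there is 1 library per group and no test. Of 142 counts of genes recomputed, 93 stayed within 1.5 times and 49 did not; of 520 list medians 433 moved little, 85 moved and 2 reversed. In the order higher then lower, a minimum of 10 CPM gave 848 and 659 genes for cKO against ESC, 632 and 588 for parental against ESC, 429 and 464 for cKO against parental selected cells, and 1486 and 996 lower genes for cKO and parental against other day 6 cells. A minimum of 50 CPM gave 364 and 504 for cKO against other cells, 135 and 247 for parental, 213 and 146 for cKO against ESC, 155 and 175 for parental, and 101 and 67 between genotypes. No minimum, with a prior of 1 CPM, gave 1538 and 2952, 783 and 1763, 1472 and 1811, 1123 and 1130, and 884 and 1769 in the same order of comparisons. Requiring the whole interval beyond 2-fold gave 320 and 392 for cKO against other cells, 391 lower for parental, 214 and 133 for cKO against ESC, 246 higher for parental, and 66 and 46 between genotypes. TMM and median-of-ratios scaling gave 349 and 359 higher genes for cKO against ESC. Thinning cells to 10000 UMIs, which leaves few UMIs in 9 cells, gave 1273 higher for cKO against other cells, 1331 and 658 against ESC, and 1154 and 654 between genotypes. Without the top 5% of UMIs 321 genes were lower between genotypes, and the surface epithelium median of cKO against ESC reversed to −0.435; that setting leaves out 2 of the 9 cKO cells. Without the 1 cKO cell with most keratin UMIs, a setting chosen after seeing the data, it reversed to −0.503, and 331 genes were lower between genotypes. Within parental cells high on chromosomes 1, 6 and 8, a setting chosen after seeing the data, 371 genes were higher and 1118 lower than in other cells; within those high on chromosome 11, 360 were lower, and 855 were higher than in ESC. The causes were not tested. The share of parental cells meeting the rule was 5.17% with a minimum of 2000 genes and at most 5% mitochondrial UMIs. It was 2.30% after thinning to 10000 UMIs, which leaves out shallower cells, and the cKO minus parental difference was then −1.57 points. Asking for 1 further gene gave 1.09% in cKO and 5.56% in parental. With 9 cKO cells, genes under about 20 CPM rest on few UMIs.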
